A study of Mus musculus with 10 samples.

Results

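The genes described here are 7 enzymes of cholesterol synthesis, Hmgcs1, Mvd, Fdps, Fdft1, Sqle, Lss and Cyp51, and Srebf2, the gene of the transcription factor SREBP2. They are 8 of the 54532 genes in the deposited table of normalized read counts and were taken by name and not by a threshold on their values, although the names were chosen with earlier results of these data known. Messenger RNA of primary peritoneal macrophages, phagocytes that live in the abdominal cavity of the mouse, was measured by bulk RNA sequencing in 3 groups: aged Trem1-/- mice (n = 3 libraries, replicates 1, 2 and 3), aged wild-type mice (n = 3, replicates 3, 4 and 6) and young wild-type mice (n = 4, replicates A, B, C and E). Trem1 codes for a myeloid cell receptor that strengthens inflammatory signalling. No young Trem1-/- group was analysed here, so the Trem1-/- libraries differ from young wild type in age and genotype at once. How old the mice were, how the Trem1 allele was made, whether the cells were sorted and whether each library came from its own mouse are not stated in the labels. The p-values therefore reflect only how far these libraries scatter, and that scatter may be technical.

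Cells make cholesterol from acetyl-CoA through mevalonate, farnesyl diphosphate, squalene and lanosterol. The pathway is controlled by SREBP2, which is made as a membrane protein of the endoplasmic reticulum, carried by SCAP to the Golgi when membrane cholesterol is low, cleaved there, and sent to the nucleus as an active factor. INSIG proteins hold it back when sterols are plentiful. Nuclear SREBP2 switches on the enzymes of the pathway and its own gene. Macrophages also take in cholesterol from lipoproteins and dead cells, and when loaded they export it through pumps that the sterol-sensing LXR receptors induce. The messenger RNA of Srebf2 measures neither the cleavage nor the nuclear amount of the protein.

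The recovered reads per library ranged from 2663744 to 5603498, and a floor of 3 reads corresponded to 1.85 to 3.84 normalized counts. Trem1 itself had 23.5, 106 and 13.8 normalized counts in the libraries labelled Trem1-/-, against 64.0, 15.3 and 27.0 in aged wild type and 14.8, 8.005, 12.0 and 24.4 in young wild type. Trem1 was thus not lower in the libraries labelled Trem1-/- (exact two-sided permutation p = 0.9 against aged wild type, where 0.1 is the smallest possible), and a count over the whole gene says nothing of a deletion that spares part of its transcript. The genotype is used as labelled. All 10 markers of large resident peritoneal macrophages were above 0 in every library, with summed levels of 73521 to 92543 normalized counts in the libraries labelled Trem1-/-, 25424 to 41390 in aged wild type and 82822 to 90545 in young wild type. Markers of B cells summed to 5976 to 12612, 12847 to 20641 and 2438 to 5187 normalized counts in those groups, in the same order. Reads of Gm26917, a noncoding RNA gene, made up 4.999% to 5.68% of all reads in the libraries labelled Trem1-/-, 8.38% to 12.9% in aged wild type and 5.06% to 5.70% in young wild type. Trem1-/- replicate 2 and young replicate C stood apart with 422 and 444 normalized counts of mesothelial and fibroblast markers, against 17.4 to 31.0 and 7.39 to 22.1 in the other libraries of their groups. All 3 aged wild-type libraries held 385 to 621 of them. Mast cell markers summed to 1942 in Trem1-/- replicate 2 and 1361 in young replicate C. The other libraries of these groups held 413 to 428 and 241 to 430, and aged wild type 918 to 2198.

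Per kilobase of exon, Srebf2 stood above the enzymes it controls, and its mean level in aged wild type was 2.08 times that of young wild type, with the libraries labelled Trem1-/- at the level of young wild type. Among the enzymes, Mvd was the exception in the opposite direction, with its lowest values in aged wild type. The remaining tested enzymes, Hmgcs1, Fdft1, Sqle, Lss and Cyp51, passed the test in none of the 3 comparisons. Fdps was at or near the floor of 3 reads in every library and was not tested.

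**Figure D1:**
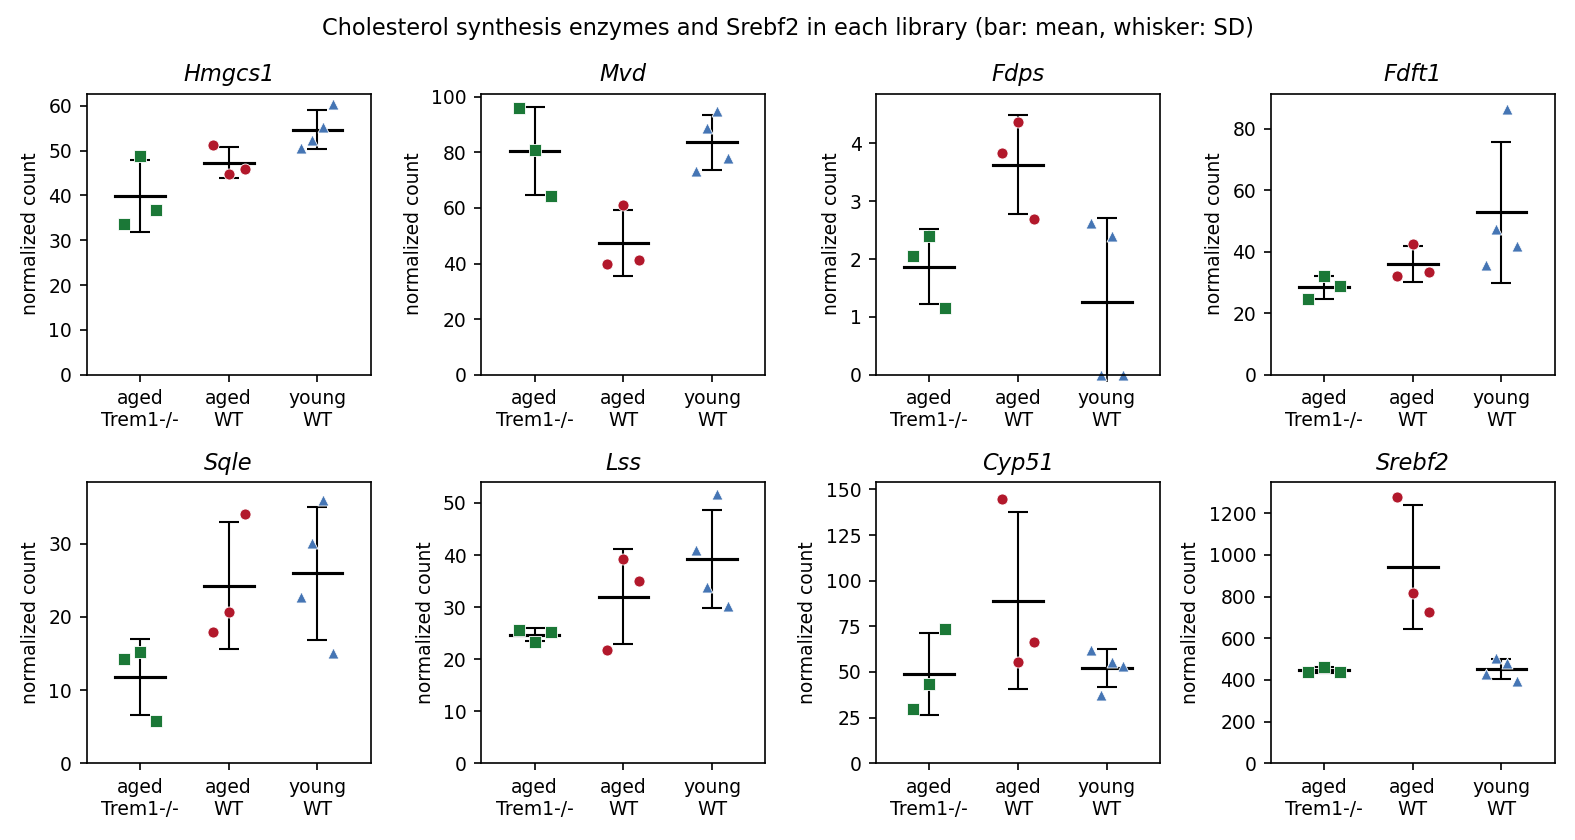
Normalized read counts of the 8 genes (1 panel each, linear axes from 0) in the libraries labelled Trem1-/- (squares), aged wild type (circles) and young wild type (triangles), with the mean as a bar and the SD as a whisker. Srebf2 lies at 726 to 1279.9 in aged wild type and at 396 to 504 in the other groups, while Mvd lies at 39.7 to 61.1 in aged wild type and at 64.2 to 96.0 in the other groups.

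Per kilobase of annotated exon, which allows genes to be set side by side, Srebf2 had a mean level of 62.0 normalized counts in the libraries labelled Trem1-/-, 131 in aged wild type and 63.0 in young wild type. That placed it above 80.4%, 92.4% and 81.2% of the tested genes in those groups. Mvd followed with 43.2, 25.5 and 45.0 normalized counts per kilobase. Cyp51 had 11.05, 20.1 and 11.8, Hmgcs1 8.66, 10.3 and 11.9, and Fdft1 6.72, 8.501 and 12.5 normalized counts per kilobase. Sqle (2.12, 4.38 and 4.69), Lss (2.29, 2.97 and 3.63) and Fdps (0.443, 0.863 and 0.298) were the least abundant per kilobase. Srebf2 thus led in all 3 groups and Mvd came next, although in aged wild type Mvd (SD 6.42) and Cyp51 (SD 10.996) did not differ beyond their spread, nor did Cyp51, Hmgcs1 and Fdft1 in young wild type. The exons of all annotated transcripts were merged for these lengths, so levels per kilobase are approximate.

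Srebf2 (ENSMUSG00000022463.8, GRCm38 chromosome 15, 82147181 to 82205379, plus strand) shares no exonic base with another annotated gene. It had 436, 462 and 438 normalized counts in replicates 1, 2 and 3 labelled Trem1-/-. The aged wild-type replicates 3, 4 and 6 held 1279.9, 816 and 726 normalized counts. In young wild type the values were 429, 504, 480.4 and 396 in replicates A, B, C and E. Every aged wild-type library was above every other library, and the libraries labelled Trem1-/- lay inside the range of young wild type.

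The mean of Srebf2 was 941 ± 297 normalized counts in aged wild type and 452 ± 48.9 in young wild type (SD, n = 3 and 4). The log2 fold change was 1.02 ± 0.17 (SE; 95% interval 0.65 to 1.39; limma adjusted p = 0.00113). Where labelled Trem1-/- it was 446 ± 14.5 against 941 ± 297 in aged wild type, a log2 fold change of -1.03 ± 0.18 (interval -1.43 to -0.64; limma adjusted p = 0.00442). Against young wild type, the difference of the libraries labelled Trem1-/- was -0.02 with an interval of -0.39 to 0.35 on the log2 scale. Both comparisons use the same aged wild-type libraries, so they do not check each other, and in bulk RNA a change in the cells present cannot be told apart from a change in RNA per cell. For the marker counts that follow, limma called 14.3% of all tested genes higher and 19.0% lower in aged against young wild type. In Trem1-/- against aged wild type it called 11.5% higher and 6.82% lower. B cell markers passed the test as higher for 9 of 9 genes in aged than in young wild type. They were lower for 3 of 9 in the libraries labelled Trem1-/- than in aged wild type. T and NK cell markers were called higher for 6 of 6 tested genes in aged than in young wild type, and lower for 5 of 6 in Trem1-/- than in aged wild type. Erythroid markers were higher for 5 of 5 and lower for 5 of 5 in those comparisons. Of the markers of large resident macrophages 9 of 10 were lower in aged than in young wild type and 8 of 10 higher in Trem1-/- than in aged wild type, and of those of dividing cells 10 of 10 were lower in the first comparison and 0 of 10 called in the second. The summed levels were 41.9 to 80.1, 205 to 348 and 30.2 to 65.4 normalized counts for T and NK cells, 17.2 to 57.7, 473 to 23701 and 9.30 to 751 for erythroid cells, and 941 to 1265, 563 to 1021 and 1773 to 4728 for dividing cells, in the libraries labelled Trem1-/-, aged wild type and young wild type. The part of these cell types in the levels of Srebf2, Mvd and the genes of the related lists was not tested. The direction and call of both differences held in 20 of 20 alternative settings, with log2 fold changes of 0.77 to 1.21 for aged against young wild type and -1.25 to -0.79 for Trem1-/- against aged wild type. The authors' deposited table gives 1.05 with a standard error of 0.19 (adjusted p = 9.08e-07) for aged against young wild type. The coefficient of variation of Srebf2 between the libraries labelled Trem1-/- was 3.25%, less than the 4.72% that read counting alone gives. Between the aged wild-type libraries it was 31.6%, against 3.45% from counting, with replicate 3 the highest.

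The promoter window of Srebf2 is shown because SREBP2 is known to act on its own gene. The sequence runs from 250 bases before to 50 bases after the RefSeq start site (chr15:82147019-82147318, plus strand, GRCm38.p6), with capitals at TCACCCCA, the core of a sterol regulatory element, and at CCAAT or its reverse complement ATTGG, the letters that the cofactor NF-Y is known to read.
Srebf2: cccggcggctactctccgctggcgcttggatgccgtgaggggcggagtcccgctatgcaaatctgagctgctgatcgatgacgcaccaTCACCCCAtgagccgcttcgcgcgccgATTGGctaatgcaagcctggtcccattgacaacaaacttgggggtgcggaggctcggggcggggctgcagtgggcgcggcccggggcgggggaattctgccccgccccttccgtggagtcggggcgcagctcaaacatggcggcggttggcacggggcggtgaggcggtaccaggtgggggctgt
TCACCCCA starts at position -162 from the start site on the gene's strand, and the CCAAT letters lie on the opposite strand at -135. That core was chosen after the windows had been read, and 1.56% of 32851 RefSeq promoter windows of this length hold it on either strand. A match is a description of these letters and says nothing of binding in these cells.

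The microRNA miR-33 lies within Srebf2 and, as background, represses Abca1, the LXR-induced cholesterol exporter. Its hairpin (chr15:82198122-82198190, plus strand, GRCm38.p6) falls in an intron in 3 of the 3 Srebf2 transcripts that span it. The mature sequence is shown with its seed, bases 2 to 8, in capitals.
mmu-miR-33-5p: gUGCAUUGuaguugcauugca
The row of the microRNA precursor, Mir33, held 2, 0 and 0 reads in the libraries labelled Trem1-/-, 4, 3 and 1 in aged wild type and 1, 0, 0 and 1 in young wild type. These counts are at or near the floor, and reads of an intronic precursor in a messenger RNA library do not measure the mature microRNA. Abca1 averaged 2114 normalized counts in the libraries labelled Trem1-/-, 1578 in aged wild type and 1364 in young wild type, and was not called in any of the 3 comparisons.

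The 5 genes whose pattern over the 10 libraries was nearest to that of Srebf2 were Gm26917, Kdm4b, Leng9, Nfatc2 and 5031425E22Rik. Nearness was the root-mean-square difference of mean-centred log2(normalized count + 1) values, which was 0.148 for Gm26917, 0.162 for Kdm4b, 0.167 for Leng9, 0.171 for Nfatc2 and 0.172 for 5031425E22Rik, against a median of 0.606 over all tested genes. All 5 were highest in aged wild type. Gm26917 averaged 195049, 339109 and 190838 normalized counts in the libraries labelled Trem1-/-, aged wild type and young wild type. Within each library, Srebf2 had 2.17 to 2.49 reads per 1000 Gm26917 reads where labelled Trem1-/-, 2.52 to 2.91 in aged wild type and 2.15 to 2.56 in young wild type, so this ratio spanned a narrower range than Srebf2 itself. The ratio was chosen after these values were seen, and the part that whatever raises Gm26917 has in the level of Srebf2 was not tested. Rescaling the libraries to the reads outside Gm26917, mitochondrial, immunoglobulin and globin transcripts gave a Srebf2 log2 fold change of 1.21 (limma adjusted p = 0.000634) for aged against young wild type, where the median of all genes moved to 0.17.

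**Figure D2:**
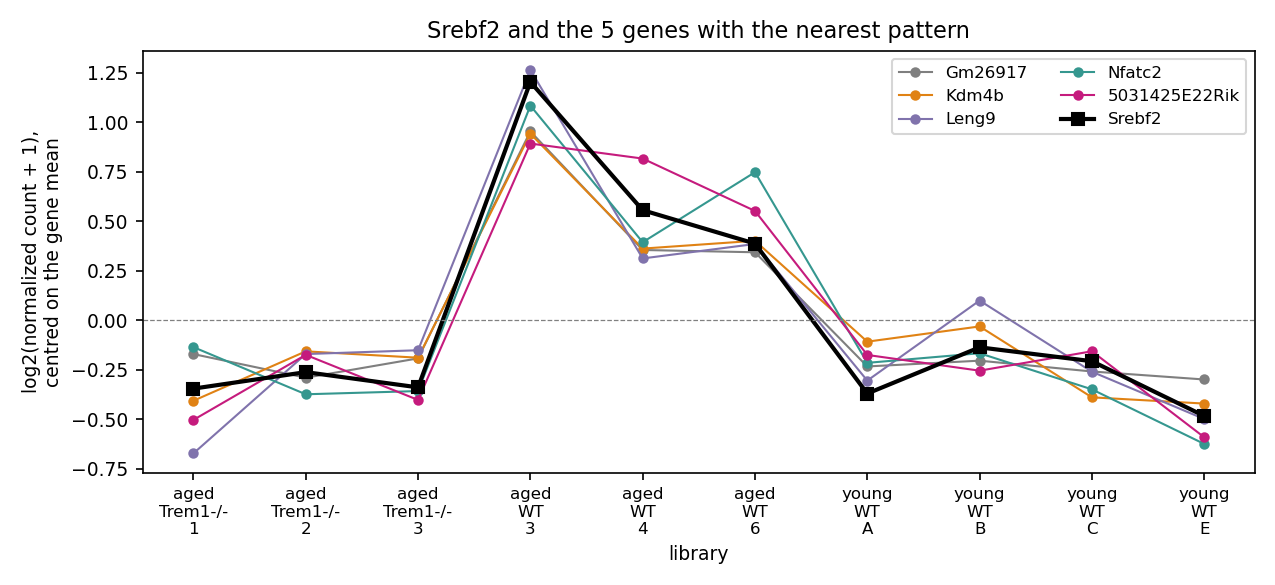
Mean-centred log2(normalized count + 1) of Srebf2 (black squares) and of the 5 genes of nearest pattern (coloured circles) in each of the 10 libraries, with lines joining the libraries only to guide the eye. All 6 genes are highest in the 3 aged wild-type libraries, with Srebf2 at 1.21, 0.56 and 0.39 there and between -0.48 and -0.14 elsewhere.

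Hmgcs1 condenses acetyl-CoA and acetoacetyl-CoA to HMG-CoA (ENSMUSG00000093930.2, chromosome 13, 119690379 to 119708260, plus strand). It had 33.7, 48.9 and 36.7 normalized counts in the libraries labelled Trem1-/-, against 51.2, 44.7 and 45.8 in aged wild type and 50.5, 52.3, 55.2 and 60.4 in young wild type. All 3 libraries labelled Trem1-/- were below all 4 young wild-type libraries, while both aged groups overlapped. The log2 fold change was -0.46 ± 0.17 against young wild type (interval -0.83 to -0.10, limma adjusted p = 0.227), which is not past the threshold. Aged and young wild type differed by -0.20 (interval -0.57 to 0.16), and Trem1-/- and aged wild type by -0.26 (interval -0.65 to 0.13). The exons of Hmgcs1 overlap 557 bases of Gm48342 on the other strand, and counting by strand is not stated. The promoter of Hmgcs1 is shown beside that of Srebf2 because it is a classical SREBP2 target, with the same letters in capitals (chr13:119690101-119690400, plus strand, GRCm38.p6).
Hmgcs1: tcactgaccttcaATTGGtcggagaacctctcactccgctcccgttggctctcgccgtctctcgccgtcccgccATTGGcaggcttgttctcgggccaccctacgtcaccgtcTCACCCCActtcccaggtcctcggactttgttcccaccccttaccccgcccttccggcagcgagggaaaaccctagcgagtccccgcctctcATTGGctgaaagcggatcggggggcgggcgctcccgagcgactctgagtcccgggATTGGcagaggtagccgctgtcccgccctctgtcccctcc
It held TCACCCCAC, the longer form of the element, at -137 on its own strand, as did 0.551% of the 32851 windows, and CCAAT on the opposite strand at -237, -176, -45 and 11. Srebf2 was called higher in aged wild type than in young wild type, while Hmgcs1 was not called in that comparison.

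Mvd decarboxylates mevalonate diphosphate to isopentenyl diphosphate, the building block of all isoprenoids. The gene (ENSMUSG00000006517.5, chromosome 8, 122433601 to 122443422, minus strand) shares no exonic base with another gene and no stretch of 50 bases with another annotated transcript. It had 96.0, 80.9 and 64.2 normalized counts in the libraries labelled Trem1-/-, against 39.7, 61.1 and 41.3 in aged wild type and 73.2, 88.7, 94.9 and 77.9 in young wild type. Every aged wild-type library was below every library of the other groups. The closest pair, aged wild-type replicate 4 and Trem1-/- replicate 3, held 56 reads each, so only the scaling of the libraries sets these apart. Mvd averaged 47.4 ± 11.9 normalized counts in aged wild type and 83.7 ± 9.89 in young wild type, a log2 fold change of -0.83 ± 0.19 (interval -1.25 to -0.40; limma adjusted p = 0.00706). This fall was called in 20 of 20 alternative settings, with log2 fold changes of -1.02 to -0.64. It averaged 80.4 ± 15.9 in the libraries labelled Trem1-/- against 47.4 ± 11.9 in aged wild type, a rise of 0.76 ± 0.21 on the log2 scale (interval 0.31 to 1.21; limma adjusted p = 0.0271).

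The rise of Mvd in the libraries labelled Trem1-/- was less firm than its fall in aged against young wild type. It was called in 13 of 20 settings, and the adjusted p reached 0.0963 without Trem1-/- replicate 1, 0.0745 without Trem1-/- replicate 2, 0.0934 without aged wild-type replicate 3 and 0.0882 without aged wild-type replicate 6. The log2 fold change stayed between 0.55 and 0.95. Settings that left out a young library kept it at 0.76, since those libraries enter this comparison only through the shared spread and the genes tested. Against young wild type the libraries labelled Trem1-/- differed by -0.07 (interval -0.49 to 0.36). The authors' deposited table gives -0.82 (adjusted p = 0.00571) for Mvd in aged against young wild type. The markers of large peritoneal macrophages moved in the same directions. Of these, 9 of 10 were lower in aged than in young wild type, beside 19.0% of all tested genes. In the libraries labelled Trem1-/- 8 of 10 were higher than in aged wild type, beside 11.5% of all tested genes. Per 1000 reads of Adgre1, the gene of the macrophage marker F4/80, Mvd had 15.2 to 20.5 reads in the libraries labelled Trem1-/-, 21.1 to 24.1 in aged wild type and 14.7 to 22.1 in young wild type. Relative to Adgre1, a ratio chosen after these values were seen, Mvd was thus not lower in aged wild type, and the part of the macrophage share in its fall was not tested.

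The promoter window of Mvd (chr8:122443373-122443672, minus strand, GRCm38.p6) is shown as that of the enzyme that changed against Srebf2. Capitals mark CCAAT and ATTGG.
Mvd: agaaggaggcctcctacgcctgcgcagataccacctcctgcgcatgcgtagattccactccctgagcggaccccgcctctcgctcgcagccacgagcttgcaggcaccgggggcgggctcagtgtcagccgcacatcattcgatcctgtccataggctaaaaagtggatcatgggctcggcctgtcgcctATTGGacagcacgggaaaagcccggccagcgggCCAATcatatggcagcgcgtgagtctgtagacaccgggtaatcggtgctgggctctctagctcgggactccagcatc
It held CCAAT on the opposite strand at -60 and on its own strand at -27, and no TCACCCCA. No match says only that these letters are not in this window.

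Fdps makes farnesyl diphosphate, where the sterol branch parts from protein prenylation, dolichol and ubiquinone (ENSMUSG00000059743.12, chromosome 3, 89093588 to 89101959, minus strand). It had 2, 3 and 1 reads in the libraries labelled Trem1-/-, 3, 4 and 3 in aged wild type and 3, 0, 2 and 0 in young wild type. These values could not be separated from the floor of 3 reads, and no fold change is given. Of its stretches of 50 bases, 26.2% also occur in other annotated genes, among them Gm43738, which overlaps 1124 of its exonic bases on the same strand, and the processed pseudogenes Gm3571 and Gm5873. The means of Gm43738, Gm3571 and Gm5873 were between 0 and 1.13 normalized counts in every group. How reads that map to several genes were counted is not given by the submitters' notes used here, so the level of Fdps relative to the other enzymes is uncertain.

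Fdft1, squalene synthase, commits farnesyl diphosphate to sterols (ENSMUSG00000021273.10, chromosome 14, 63145150 to 63179578, minus strand). It had 24.5, 32.0 and 28.7 normalized counts in the libraries labelled Trem1-/-, against 32.0, 42.6 and 33.2 in aged wild type and 35.7, 47.4, 86.5 and 41.8 in young wild type. The libraries labelled Trem1-/- lay below young wild type without overlap. Young wild-type replicate C stood apart within its group, and Fdft1 varied by 43.3% between the young libraries, against 14.1% from read counting. The log2 fold change of Trem1-/- against young wild type was -0.80 ± 0.27 (limma adjusted p = 0.204), and -0.54 without young replicate C. The exons of Fdft1 overlap 774 bases of the cathepsin gene Ctsb on the other strand, whose mean was 5373 normalized counts in the libraries labelled Trem1-/-, 3177 in aged wild type and 5332 in young wild type. Without a statement that reads were counted by strand, the reads of these genes cannot be told apart there.

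Sqle, squalene epoxidase, is a rate-limiting oxidation step (ENSMUSG00000022351.14, chromosome 15, 59315077 to 59331192, plus strand). It had 14.3, 15.2 and 5.74 normalized counts in the libraries labelled Trem1-/-, against 17.9, 20.7 and 34.1 in aged wild type and 22.7, 30.2, 36.03 and 15.1 in young wild type. The libraries labelled Trem1-/- were all below aged wild type, and overlapped young wild type at its replicate E. Sqle had the largest estimated differences of the enzymes, -1.04 ± 0.42 against aged wild type (adjusted p = 0.108) and -1.12 ± 0.40 against young wild type (adjusted p = 0.219), both from limma and not past the threshold. Its counts were few, with 38 reads in all in the libraries labelled Trem1-/-, 71 in aged wild type and 118 in young wild type. Aged and young wild type differed by -0.08 (interval -0.94 to 0.78), a sign that 6 of 19 alternative settings turned.

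Lss, lanosterol synthase, closes the sterol rings (ENSMUSG00000033105.12, chromosome 10, 76531588 to 76557138, plus strand). It had 25.5, 23.2 and 25.2 normalized counts in the libraries labelled Trem1-/-, against 21.8, 39.3 and 35.0 in aged wild type and 41.0, 33.9, 51.6 and 30.2 in young wild type. The libraries labelled Trem1-/- were again below young wild type without overlap, at a log2 fold change of -0.62 ± 0.25 (limma adjusted p = 0.272). Lss differed by -0.30 (interval -0.84 to 0.25) between aged and young wild type. The exons of Lss overlap 381 bases of 4930483K19Rik on the other strand, and counting by strand is not stated.

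Cyp51 removes a methyl group from lanosterol (ENSMUSG00000001467.5, chromosome 5, 4081145 to 4104746, minus strand). It had 29.6, 43.3 and 73.4 normalized counts in the libraries labelled Trem1-/-, against 145, 55.7 and 66.5 in aged wild type and 61.9, 37.6, 55.2 and 53.5 in young wild type. Aged wild-type replicate 3, which also had the most Srebf2, was far above the rest. Cyp51 varied by 54.6% in aged wild type, against 11.8% from read counting. Aged wild type differed by 0.66 ± 0.35 from young wild type (limma adjusted p = 0.174), and by 0.24 without aged wild-type replicate 3. The libraries labelled Trem1-/- differed from aged wild type by -0.82 ± 0.38 (limma adjusted p = 0.148), and by -0.41 without that replicate. The exons of Cyp51 overlap 166 bases of Akap9 on the other strand. Akap9 averaged 559, 630 and 532 normalized counts in the libraries labelled Trem1-/-, aged wild type and young wild type. Since counting by strand is not stated, the reads of these genes cannot be told apart there.

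In aged against young wild type, the comparison that asks what age does in wild-type macrophages, Srebf2 rose and Mvd fell. Of the 7 tested genes, 1 was called higher and 1 lower, where limma called 33.3% of all 11506 tested genes, 14.3% higher and 19.0% lower. The count of calls among the 7 was thus close to the background. Aged wild type lay above young wild type without overlap for 1 of the 7 (Srebf2), where 18.4% of tested genes did so, and below it for 1 (Mvd), where 21.9% did so. The median log2 fold change of the 7 was -0.20, against -0.02 over all tested genes. Hmgcs1, Fdft1, Sqle and Lss had estimates between -0.47 and -0.08, and Cyp51 stood at 0.66.

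In aged Trem1-/- against aged wild type, the comparison that asks what loss of Trem1 does at old age, Srebf2 fell and Mvd rose. Of the 7, 1 was called higher and 1 lower, where limma called 18.4% of all tested genes, 11.5% higher and 6.82% lower. The 3 libraries labelled Trem1-/- lay below aged wild type without overlap for Srebf2 and Sqle, where 15.5% of tested genes did so, and above it for Mvd, where 19.4% did so. For Mvd the closest pair held 56 reads each, so that separation rests on the scaling. The median log2 fold change of the 7 was -0.33, against 0.02 over all tested genes. Trem1 was not lower in these libraries, so the direction rests on the label.

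In aged Trem1-/- against young wild type, the differences of Srebf2 and Mvd were -0.02 and -0.07 on the log2 scale, and Hmgcs1, Fdft1, Sqle and Lss had estimates of -1.12 to -0.46. By limma 0 of the 7 were called, where 0.921% of all tested genes were (0.591% higher and 0.330% lower). On the recovered reads edgeR and DESeq2 also called 0 of the 7, with no share of all genes given here for either. At an unadjusted limma p below 0.05, 4 of the 7 were lower (Hmgcs1, Fdft1, Sqle and Lss), where 6.62% of all tested genes were. The libraries labelled Trem1-/- lay below young wild type without overlap for 3 of the 7 (Hmgcs1, Fdft1 and Lss), where 7.72% of tested genes did so, and above it for 0, where 8.05% did so. The closest Trem1-/- and young libraries held 61 and 58 reads for Hmgcs1, 40 and 41 for Fdft1 and 25 and 26 for Lss. Counting error alone could close these gaps. All 7 estimates were below 0, with a median of -0.46 against 0.01 over all tested genes, although that of Srebf2 turned sign without young replicate B (0.04) or C (0.01), that of Mvd without Trem1-/- replicate 3 (0.08) and that of Cyp51 without Trem1-/- replicate 1 (0.14). Young wild-type replicate C was the highest of its group for 4 of the 6 tested enzymes, a count with no share over all genes given here. That library stood apart from the other young ones in mesothelial and fibroblast, mast cell and erythroid markers. Its erythroid markers summed to 751 normalized counts, against 9.30 to 105 in the others. The part of these cells in its enzyme levels was not tested. Without replicate C the 4 lower genes had log2 fold changes of -0.46 for Hmgcs1, -0.54 for Fdft1, -0.94 for Sqle and -0.48 for Lss.

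**Figure D3:**
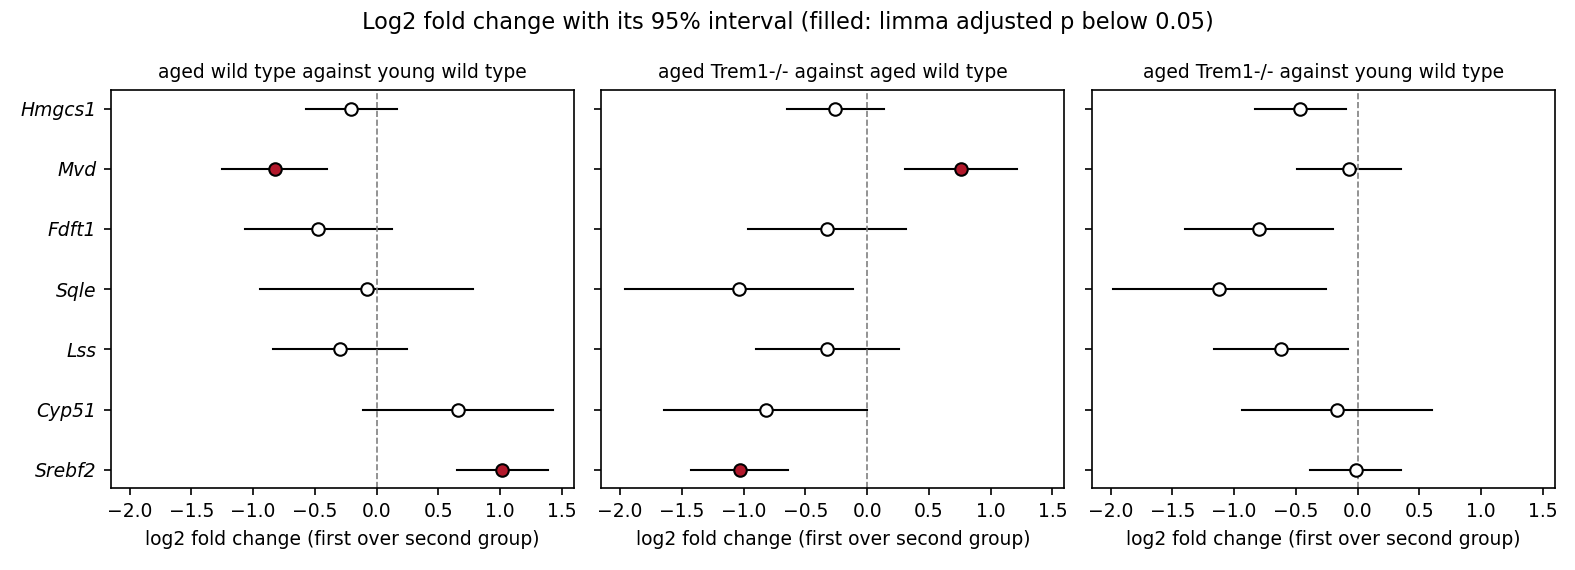
Log2 fold changes (points) and their 95% intervals (lines) of the 7 tested genes in the 3 comparisons, first-named group over the second, with filled points for a limma adjusted p below 0.05. Srebf2 and Mvd are the filled points, with opposite signs, in the first and second panels, and the third panel has none, with all 7 points below 0.

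Within each library, the reads of Srebf2 were set against those of the enzymes. Srebf2 had 1.86 to 1.93 reads per read of the 7 enzymes together in the libraries labelled Trem1-/-, 2.81 to 4.12 in aged wild type and 1.26 to 1.74 in young wild type. The 3 ranges did not overlap, and the libraries labelled Trem1-/- lay between the wild-type groups. Per read of Mvd, Srebf2 had 4.54 to 6.82 reads in the libraries labelled Trem1-/-, 13.4 to 32.3 in aged wild type and 5.06 to 5.86 in young wild type. The summed level of the 7 enzymes was 226 to 246 normalized counts in the libraries labelled Trem1-/-, 259 to 311 in aged wild type and 279 to 382 in young wild type. This sum, which weights the abundant Mvd and Cyp51 most, was lower in each library labelled Trem1-/- than in each wild-type library. These ratios were not tested, since the members were named with results of these data known. How often ratios of other genes separate the groups is not given here. The part of the cell types present in these ratios was not tested.

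**Figure D4:**
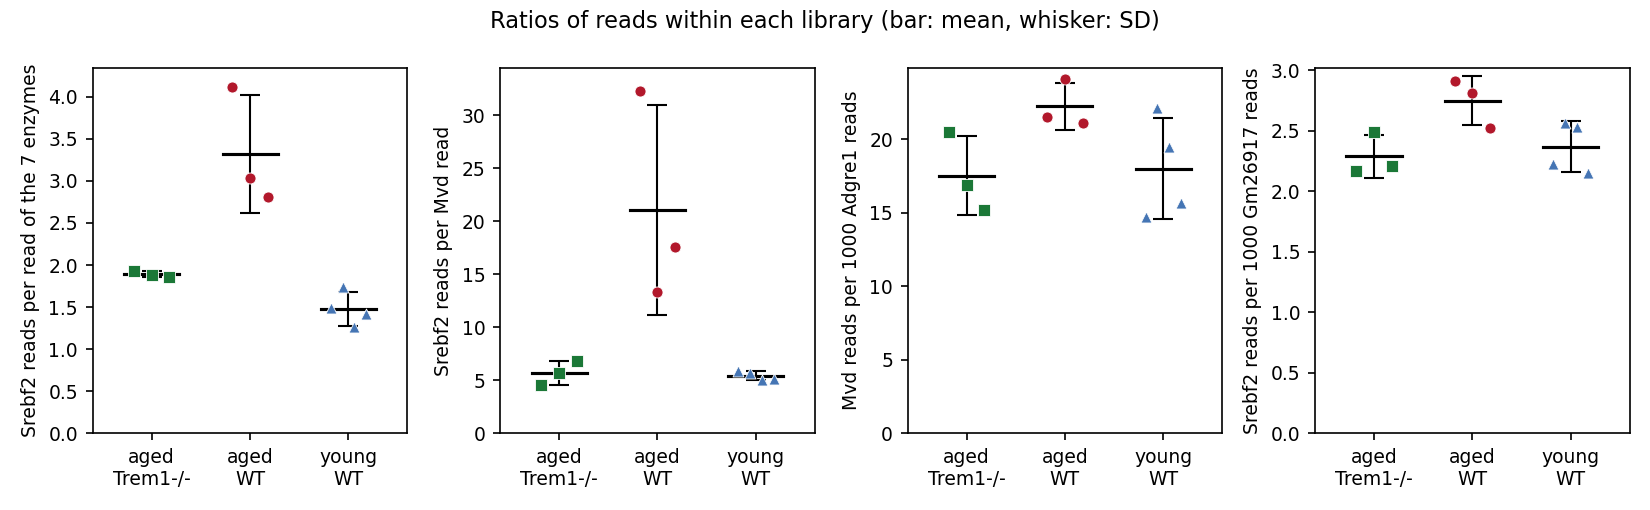
Reads of Srebf2 per read of the 7 enzymes, Srebf2 per Mvd read, Mvd per 1000 Adgre1 reads and Srebf2 per 1000 Gm26917 reads in each library, by group from the libraries labelled Trem1-/- to aged and young wild type, with the mean as a bar and the SD as a whisker. The first ratio separates all 3 groups (1.86 to 1.93, 2.81 to 4.12 and 1.26 to 1.74), while in each of the last 2 aged wild type overlaps young wild type and lies above the libraries labelled Trem1-/-.

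Among the 5 genes nearest to the mean pattern of the 7 tested genes were Npm3, Naa20, Yod1 and 5430427O19Rik, with root-mean-square log2 differences of 0.126, 0.127, 0.134 and 0.136 against a median of 0.401 over all tested genes. Along that mean pattern the libraries labelled Trem1-/- were lowest, from -0.39 to -0.19 on the centred log2 scale, aged wild type lay from 0.09 to 0.15 and young wild type from -0.04 to 0.45.

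A promoter window was found for Hmgcs1, Mvd, Lss, Cyp51 and Srebf2, 5 of the 8 genes. The motifs searched on both strands were TCACCCCAC and its core TCACCCCA, CCAAT, the GC box GGGCGG and the E box CACGTG. The longer element was in 1 of the 5 windows, that of Hmgcs1, and the core in 2 of 5, those of Hmgcs1 and Srebf2. CCAAT was in 5 of 5 windows, where 37.4% of all RefSeq windows hold it, and GGGCGG in 5 of 5, where 35.7% do. CACGTG was in 0 of 5, where 7.15% of all windows hold it. Among the other cholesterol synthesis enzymes 11 of 12 genes with a window held CCAAT in any of their windows. Some of these genes have several windows, while the shares over all windows count each window by itself. The windows with CCAAT include those of both Srebf2 and Mvd, and the part of these letters in the levels of either gene was not tested.

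Of the other enzymes of cholesterol synthesis 14 were listed and 13 tested. In aged against young wild type 0 rose and 1 fell, where limma called 14.3% of all tested genes higher and 19.0% lower, with a list median of -0.28 on the log2 scale against -0.02 over all genes. The gene that fell was Ebp, the sterol isomerase, with 68.0 ± 4.29 normalized counts in aged wild type and 104 ± 20.2 in young wild type (-0.60 ± 0.17, limma adjusted p = 0.0181). In the libraries labelled Trem1-/- against aged wild type 1 of the 13 rose and 1 fell, where 11.5% of all tested genes were called higher and 6.82% lower. These shares are the background for the counts of the further lists in the same 2 comparisons. The one that rose was Ebp, with 110 ± 19.2 normalized counts in the libraries labelled Trem1-/- against 68.0 ± 4.29 in aged wild type (0.67 ± 0.18, adjusted p = 0.0254), so it moved as Mvd did. The fall of Ebp in aged against young wild type lost its call in 2 settings, without aged wild-type replicate 6 (adjusted p = 0.059) and after rescaling outside Gm26917, mitochondrial, immunoglobulin and globin reads (0.0626). Its call in Trem1-/- against aged wild type was lost in 5 settings, among them without Trem1-/- replicate 2 (adjusted p = 0.0944).

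Of the genes that process SREBP proteins, 10 were tested. Insig1, which retains SCAP in the endoplasmic reticulum and is itself an SREBP2 target, had 116, 81.7 and 116 normalized counts in the libraries labelled Trem1-/-, against 97.3, 98.2 and 84.5 in aged wild type and 154, 147, 148 and 150 in young wild type. Every aged library was below every young one, and Insig1 fell in aged against young wild type (-0.68 ± 0.14, limma adjusted p = 0.00371), opposite to Srebf2. Syvn1, a ubiquitin ligase of the endoplasmic reticulum, rose in aged against young wild type (0.76 ± 0.19, adjusted p = 0.0109). Against aged wild type, Ube2g2, a ubiquitin-conjugating enzyme, rose in the libraries labelled Trem1-/- (0.74 ± 0.20, adjusted p = 0.0246, lost in 5 settings), and 0 fell. Scap had 101, 125 and 98.9 normalized counts and Srebf1, the gene of SREBP1, had 247, 239 and 253 as means of the libraries labelled Trem1-/-, aged wild type and young wild type, with no call for either. The list median was -0.01 in aged against young wild type and 0.03 in Trem1-/- against aged wild type.

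Among the targets in uptake and transport, 7 tested, 3 fell in aged against young wild type and 0 rose, beside 19.0% and 14.3% of all tested genes, with a list median of -0.61. Npc2, which hands cholesterol over in lysosomes, fell to 496 ± 103 normalized counts in aged wild type, against 893 ± 27.4 in young wild type (-0.87 ± 0.12, limma adjusted p = 0.000511), and Stard3, a sterol carrier of late endosomes, fell by 0.61. In the libraries labelled Trem1-/- against aged wild type Npc2 rose (0.90 ± 0.13, adjusted p = 0.00212), as did its partner Npc1 (0.49 ± 0.10, adjusted p = 0.00873, lost at 0.0762 after rescaling outside Gm26917, mitochondrial, immunoglobulin and globin reads). The list median was 0.49 there, against 0.02 over all genes. Npc2 thus took the direction of Mvd and not of Srebf2 in aged against young wild type. The markers of large resident macrophages moved the same way. Their median was -1.23 in aged against young wild type and 1.06 in Trem1-/- against aged wild type. The part of the macrophage share in the genes of this and the other lists was not tested.

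Enzymes that use farnesyl and geranyl diphosphate for other products, 16 tested, had 1 higher and 1 lower in aged against young wild type, beside 14.3% and 19.0% of all tested genes. These were Pdss2 of ubiquinone synthesis (0.63 ± 0.20, limma adjusted p = 0.0341) and Fnta of protein prenylation (-0.32 ± 0.11, adjusted p = 0.0482), whose calls were lost in 10 of 19 and 15 of 20 settings. In the libraries labelled Trem1-/- against aged wild type Nus1 of dolichol synthesis rose (0.71 ± 0.19, adjusted p = 0.025), lost in 6 settings, and 0 fell. The list medians were 0.15 and -0.12 in these comparisons.

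Fatty acid synthesis genes, which SREBP1 is known to drive, moved in both directions: of 13 tested, 3 rose and 3 fell in aged against young wild type, beside 14.3% and 19.0% of all tested genes. Scd1, the stearoyl-CoA desaturase, had 594, 627 and 1407 normalized counts in the libraries labelled Trem1-/-, against 2799, 864 and 2167 in aged wild type and 316, 381, 288 and 191 in young wild type. It rose by 2.602 ± 0.40 on the log2 scale in aged against young wild type (limma adjusted p = 0.000785). Acaca (-1.22 ± 0.16), Elovl5 (-0.96 ± 0.12) and Acly (-0.75 ± 0.16), which make malonyl-CoA, extend unsaturated fatty acids and make cytosolic acetyl-CoA, fell in the same comparison, with limma adjusted p values of 0.000407, 0.000336 and 0.00434. Against aged wild type those 3 rose in the libraries labelled Trem1-/-, by 1.13 ± 0.17, 1.21 ± 0.13 and 0.89 ± 0.17, and Elovl6 fell (-1.63 ± 0.45, adjusted p = 0.0272, lost in 6 settings). Of the stretches of 50 bases in Acaca, 30.4% also occur in other genes, so its level is less certain than its neighbours'. Acly supplies the acetyl-CoA that cholesterol synthesis starts from.

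LXR targets and oxysterol enzymes, 9 tested, had 1 higher and 2 lower in aged against young wild type, a share equal to the 33.3% of all tested genes called in either direction. Mylip, a ubiquitin ligase, rose (0.94 ± 0.15, limma adjusted p = 0.000812), while Soat1, which esterifies cholesterol for storage, fell (-0.54 ± 0.10, adjusted p = 0.0022), as did the sterol hydroxylase Cyp27a1 (-0.89 ± 0.29, adjusted p = 0.0324, lost in 7 settings). In the libraries labelled Trem1-/- against aged wild type Soat1 rose (0.61 ± 0.11, adjusted p = 0.00499) and 0 fell. In the libraries labelled Trem1-/- against young wild type, limma called 0 genes in each of these 6 lists, where it called 0.921% of all tested genes. At an unadjusted limma p below 0.05, 4 of 13 other cholesterol enzymes, 3 of 10 processing genes, 2 of 7 uptake genes, 4 of 16 branch enzymes, 4 of 13 fatty acid genes and 4 of 9 LXR genes passed in either direction, where 14.4% of all tested genes did.

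**Figure D5:**
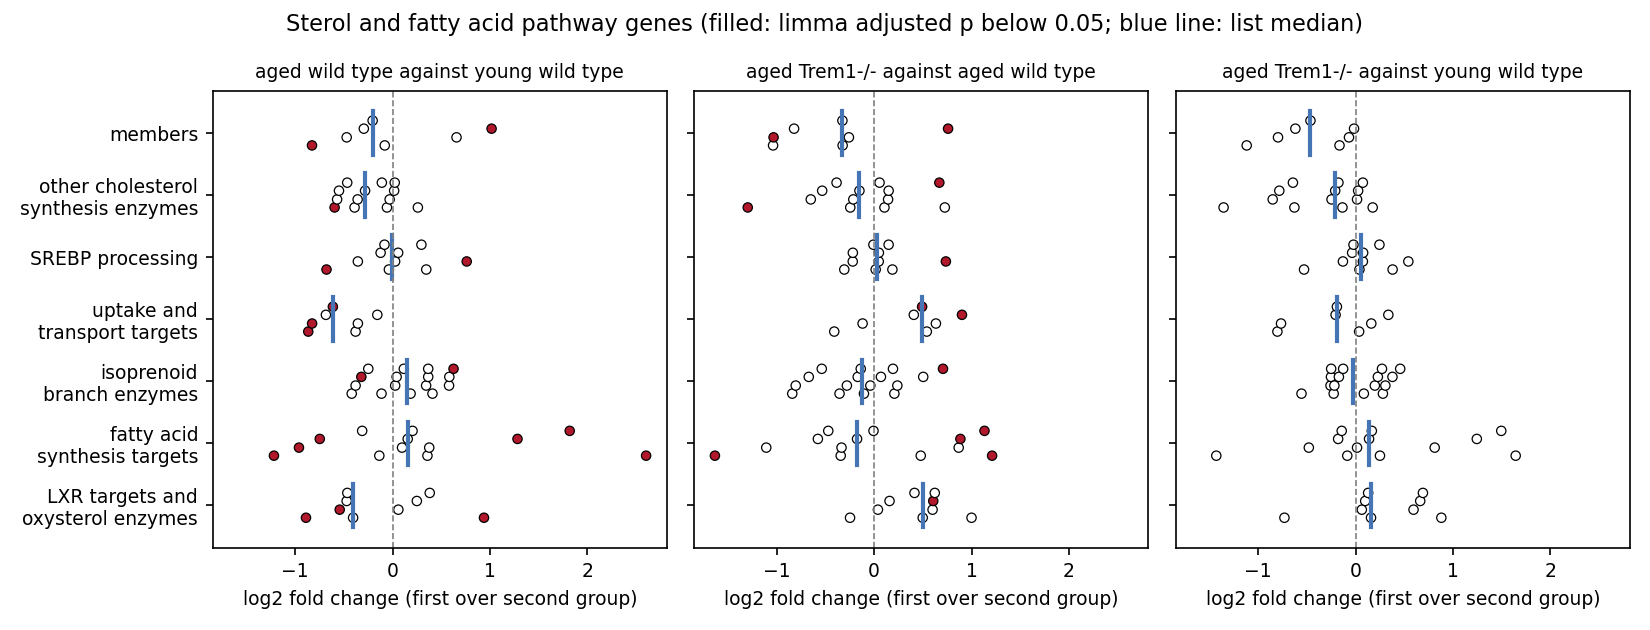
Log2 fold change of each tested gene (points, filled for a limma adjusted p below 0.05) in the 8 genes of interest and 6 related lists, with the list median as a blue line, in the 3 comparisons, first-named group over the second. The uptake and transport list has its median at -0.61 in aged against young wild type and at 0.49 in Trem1-/- against aged wild type, and the third panel has no filled point.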

How the data were processed

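The authors deposited 1 table of normalized counts, a signal per gene and library. It also holds, per the file headers, their comparison of aged and young wild type: log2 fold changes with standard errors, the Wald statistic (a score), and raw and adjusted p-values. Per the submitters' processing notes, DESeq2 1.20.0, featureCounts 1.5.0-p3, STAR and fastp were used, with the build GRCm38. Counting by strand is not stated there. In each library 100% of values were whole multiples of 1 number within a tolerance of 1e-06, so whole reads were recovered (2663744 to 5603498 per library); floors cover counting error only.

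All 10 libraries entered 1 limma-trend fit with 3 groups on log2(normalized count + 1), run in R 4.3.3 with limma 3.58.1. The 11506 genes whose mean reached 10 normalized counts were tested, with Benjamini-Hochberg adjustment over all of them and a threshold of 0.05; fold changes on this scale understate those of low genes. The fit was also run on simulated counts with known changes in some genes. Those counts held no shift in composition between the groups, so they do not measure the error rates of the fit in these data. Trem1 was compared by exact permutation tests. Alternatives were each library left out, pseudocounts of 0.5 and 5, other filters and scalings, fits of 2 groups, and edgeR 4.0.16 and DESeq2 1.42.0 on the recovered reads. Gene positions, exon overlaps and shared stretches of 50 bases came from GENCODE M21, and promoters and miR-33 from RefSeq tables of GRCm38.p6. The members and lists were chosen with earlier results of these data known. All members are named; of other lists, genes called by limma are named, at most 4 per list and comparison by lowest adjusted p, with some others (Scap, Srebf1, Abca1) chosen after their values were seen. Some genes of these lists are not reported here by name. No p-value was computed for a list.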

Additional observations from a re-analysis of the deposited data

Results flagged for a closer look

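Soat1, which esterifies cholesterol for storage, had 502.0 normalized counts in young wild-type replicate C, against 445 to 453.3 in the other 3 young libraries. It is listed because the gap to the nearest library, 0.86 of the group's range, was above Dixon's 95% critical value for 4 samples. Among 28 groups of young libraries looked at, 1 was past that value, and chance alone places about 1 in 20 there. The same library had the highest Fdft1, Sqle, Lss and Mvd of its group.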

How the results depend on the processing

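No paired analysis was possible because the young libraries carry letters and the aged groups share only the number 3. The calls of Srebf2 (higher in aged than in young wild type, lower in Trem1-/- than in aged wild type) and of Mvd (lower in aged than in young wild type) held in 20 of 20 alternatives. Alternatives that left out a library of the group not compared could change only the shared spread and the genes tested, not the fold change. The count of members called higher in Trem1-/- against aged wild type, 1 for Mvd, was 0 with the libraries rescaled outside Gm26917, mitochondrial, immunoglobulin and globin reads (0.55, limma adjusted p = 0.0734), 0 with only these 2 groups fitted (adjusted p = 0.0783), and 0 without Trem1-/- replicate 2 and young wild-type replicate C together (adjusted p = 0.0971), a setting added after the data were seen. With single libraries left out it was 0 to 1. That rescaling moved the median of all genes to 0.17 in aged against young wild type and to -0.20 in Trem1-/- against aged wild type; the cause of the lost calls was not tested. Srebf2 stood at 1.21 and -1.25 there. Among values that were not called, Sqle in aged against young wild type was -0.08 and became 0.105 with that rescaling and 0.0941 in the added setting. Leaving out single libraries it ranged from -0.345 to 0.102, above 0 without aged wild-type replicate 3 or 4 or young replicate B or C. In Trem1-/- against young wild type, leaving out single libraries gave -0.204 to 0.0822 for Mvd (above 0 without Trem1-/- replicate 3), -0.504 to 0.137 for Cyp51 (above 0 without Trem1-/- replicate 1) and -0.0776 to 0.0381 for Srebf2 (above 0 without young replicate B or C). Depth limits Sqle most among the tested members, with 38, 71 and 118 reads in the libraries labelled Trem1-/-, aged wild type and young wild type.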
